A study of Mus musculus with 6 samples.

Results

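Class I histocompatibility and peptide loading transcripts were followed in mouse liver with and without squalene in a Western diet. The set held 10 genes, H2-K1, H2-D1, H2-Q1, H2-Q4, H2-T23, B2m, Tap1, Tap2, Psmb8 and Psmb9, out of 20284 genes with a named probe on the array. They were found by matching the accession of every non-control probe to a RefSeq symbol, which gave 11 of 55681 probes, with 2 for H2-K1 and 1 for each of the others. All 11 probes passed the filter on dim signals. They were chosen by membership of the class I route and with their log ratios of squalene over Western in the 4 pool pairs in view. Those ratios are therefore given as a description, with no test.

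Class I molecules display peptides from inside the cell to CD8 T cells, and natural killer cells read their level. A heavy chain folds around a peptide together with B2m, the invariant light chain, after the peptide has been cut by the proteasome and carried into the endoplasmic reticulum by the Tap1 and Tap2 transporter. Interferon gamma raises the whole route and exchanges constitutive proteasome subunits for Psmb8 and Psmb9, the catalytic subunits of the immunoproteasome.

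Liver RNA came from male C57BL/6J-background mice without a working Apoe gene, which develop high plasma cholesterol. Control mice (9 animals) ate a purified Western diet with 0.15% cholesterol and 20% palm oil, and treated mice (10 animals) ate that diet with 1% squalene, about 1 g/kg of body weight, both for 11 weeks. Both diets thus share the Apoe deletion, the cholesterol and the palm oil, and neither a chow diet nor mice with Apoe were analysed here. RNA was combined into 4 pools per diet, each from 2 or 3 animals (pools 1 to 4 Western, 5 to 8 squalene). A high value in a pool can come from 1 animal of it, and single animals were not measured. Each two-colour array carried 1 pool of each diet, which made 4 pool pairs: pool 5 with 1, 6 with 2, 7 with 3 and 8 with 4. Squalene RNA was in the Cy5 dye in pairs 1 and 4 and in Cy3 in pairs 2 and 3.

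The promoters of 8 of the 10 genes were in the RefSeq table of assembly GRCm38.p6, H2-Q1 and Tap2 having none there. Those of H2-D1, H2-Q4 and B2m are shown because H2-D1 and B2m share the pattern over pools described below while H2-Q4, related to H2-D1 in sequence, does not. Each is the 190 bases before the gene's start, on the plus strand: chr17:35262904-35263093 for H2-D1, chr17:35379427-35379616 for H2-Q4 and chr2:122147497-122147686 for B2m. The fourth sequence, chr17:34187331-34187555 on the plus strand, is the whole 225 bases between the starts of Psmb9, which runs to the left, and Tap1, which runs to the right, the members with the widest spread along with Psmb8. Capitals mark matches on either strand to GAANNGAAA and GAAANNGAAA (forms of the interferon-stimulated response element), GGGATTNCC (an NF-kappaB-like site of class I enhancers), TGACG (the core of the site bound by CREB and ATF factors) and CCAAT (the site of NF-Y).
H2-D1: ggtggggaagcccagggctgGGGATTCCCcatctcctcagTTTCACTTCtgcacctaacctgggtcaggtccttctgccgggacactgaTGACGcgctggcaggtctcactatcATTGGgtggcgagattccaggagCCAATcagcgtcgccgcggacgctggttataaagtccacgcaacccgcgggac
H2-Q4: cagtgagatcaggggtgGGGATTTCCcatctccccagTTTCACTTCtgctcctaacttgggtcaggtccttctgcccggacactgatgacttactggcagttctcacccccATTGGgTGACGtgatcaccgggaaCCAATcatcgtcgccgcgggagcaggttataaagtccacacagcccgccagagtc
B2m: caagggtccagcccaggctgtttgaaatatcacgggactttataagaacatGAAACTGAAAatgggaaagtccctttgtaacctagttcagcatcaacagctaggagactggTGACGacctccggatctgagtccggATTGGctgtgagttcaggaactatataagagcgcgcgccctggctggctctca
Tap1 and Psmb9: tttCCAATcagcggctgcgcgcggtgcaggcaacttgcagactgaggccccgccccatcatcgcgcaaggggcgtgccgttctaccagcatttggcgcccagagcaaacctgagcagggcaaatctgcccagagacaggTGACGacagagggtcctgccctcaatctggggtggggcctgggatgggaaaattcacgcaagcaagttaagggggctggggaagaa

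Over the 250 bases before the start, GAANNGAAA was in 6.31% of all 32851 promoters in the table and in those of H2-K1, H2-D1 and H2-Q4. GAAANNGAAA, in 2.98% of promoters, was in those of B2m and H2-T23, and no stretch matched both forms. GGGATTNCC was in 0.822% of promoters and again in H2-K1, H2-D1 and H2-Q4, upstream of the interferon element. Its stricter form GGGATTCCC, in 0.301%, matched H2-K1 and H2-D1 and not H2-Q4. CCAAT stood in 7 of the 8 promoters (33.8% of all) and TGACG in 6 of the 8 (17.8% of all). The H2-D1 and H2-Q4 promoters were identical at 75.9% of aligned positions, against 39.3% to 54.8% for the other 9 pairs among H2-K1, H2-D1, H2-Q4, H2-T23 and B2m. A match describes letters and not a bound site.

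Between diets, limma called 0 of 20658 features (0%) at a Benjamini-Hochberg adjusted p under 0.05. The smallest adjusted p was 0.158 by that limma test, and 511 features (2.47%) had an unadjusted p under 0.05. In each channel 46.64% to 51.87% of spots were well above background, and none was saturated. Repeat arrays of pairs 1 and 2 correlated over features at r = 0.847 and 0.879, which describes 1 hybridisation against another of the same RNA. All 10 hepatocyte markers passed the filter. The members were measured alike in all 4 pairs, with signal net of background from 60.5 for H2-Q1 and 174.5 for Tap1 up to 103060 for H2-K1.

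Averaged over the pairs, 9 of the 10 genes lay near equal levels in both diets, between -0.02 and 0.13 in log2 ratio, with SDs of 0.13 to 0.61. H2-Q1 was the exception, at -0.40 ± 0.20 (SD, n = 4). The average hid 1 pool pair: 8 of the 10 genes had their highest ratio in pair 1 and were above 0 there, against 22.6% of all features highest in pair 1 and 52.7% above 0. The member median was 0.36, -0.05, -0.04 and -0.21 in pairs 1 to 4, where the median of all features was within 0.012 of 0 in every pair. Without pair 1, taking the plain mean of the other 3 pairs, the member median was -0.10. Of the 10 means 9 were below 0, against 10432 of 20658 features. For the 8 genes with means near 0 and their highest ratio in pair 1, this follows from leaving out that ratio. Nothing further is read from it. The count of 8 fell to 4 with the authors' deposited table centred on all probes, where the median of all features in pair 3 was 0.38. It was 8 again when that table was centred on probes above background.

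**Figure D1:**
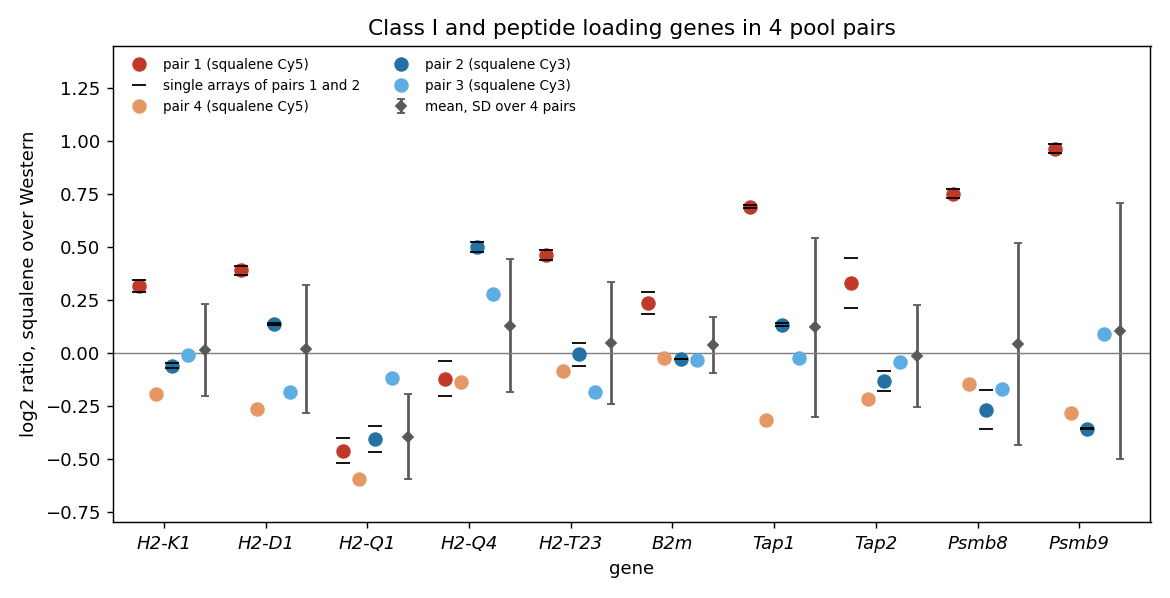
Log2 ratio of squalene over Western for each of the 10 genes in each pool pair (large points, coloured by pair), with the single arrays of pairs 1 and 2 as dashes and the mean with SD over 4 pairs as grey diamonds. Pair 1 is the highest point for all genes but H2-Q1 and H2-Q4, reaching 0.96 for Psmb9, and H2-Q1 is below 0 in all 4 pairs.

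Among the heavy chains, H2-K1 and H2-D1 encode the classical molecules that present peptides to CD8 T cells. H2-K1 had log2 ratios of 0.32, -0.062, -0.0091 and -0.20 in pairs 1 to 4, a mean of 0.01 ± 0.22 (SD, n = 4). Its other probe read 0.36, -0.05, -0.11 and -0.09, so both probes were high in pair 1 and below 0 in the other 3 pairs. Those signs depended on the normalisation. With the scanner software's processed signals H2-K1 had 0.17, 0.09, 0.14 and -0.39 in pairs 1 to 4. In the authors' deposited table, centred on all probes, pair 3 (0.50) was above pair 1 (0.32). The first probe was printed at 10 spots per array, which shows how small the error within an array was. Spots of an array share its normalisation, so they do not bear on that dependence. In pair 1 the spots kept averaged 0.34 ± 0.05 (SD, 9 spots) on slide 1 and 0.29 ± 0.05 (SD, 7 spots) on slide 2, and the lowest of these spots was at 0.25. The highest single spot of any other array was 0.09, in pair 3.

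H2-D1 gave 0.39, 0.14, -0.19 and -0.27 in pairs 1 to 4, a mean of 0.02 ± 0.30 (SD, n = 4). Its squalene pools 5 to 8 had log2 intensities of 15.20, 14.96, 14.67 and 14.75, and its Western pools 1 to 4 had 14.81, 14.83, 14.86 and 15.02. The squalene pools thus lay on both sides of the Western pools and the diets overlapped. H2-T23, the mouse Qa-1 molecule that presents leader peptides of other class I chains to natural killer receptors, gave 0.46, -0.0072, -0.19 and -0.09, a mean of 0.05 ± 0.29 (SD, n = 4). Pair 1 stood above the other 3, as for H2-K1 and H2-D1.

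H2-Q1, a class I gene of the Q region, did not share that pattern. Its log2 intensities were 7.67, 7.58, 7.34 and 7.58 in Western pools 1 to 4 and 7.21, 7.17, 7.22 and 6.99 in squalene pools 5 to 8. Every squalene pool was below every Western pool, in levels that mix both dyes. The share of all features separated in this way was not counted, so nothing is read from it. The ratios were -0.46, -0.41, -0.12 and -0.60, a mean of -0.40 ± 0.20 (SD, n = 4; SE 0.07), or 0.76 of the Western level. H2-Q1 was the 1 member of 10 below 0 in all 4 pairs, against 3.05% of features, and 0 of 10 were above 0 in all 4, against 3.33%; the diet contrast served in choosing the genes, so nothing is read from these shares. Its mean was lower than that of all but 0.242% of features. The probe was dim, with signal net of background between 60.5 and 155.5, and the size of the difference moved with the background correction, from -0.40 to -0.63 with the scanner software's processed signals. In the authors' deposited table, centred on all probes, pair 3 was at 0.22, and at -0.14 when centred on probes above background.

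H2-Q4, another Q region chain, split by dye in place of by pair 1. It gave -0.12 and -0.14 in pairs 1 and 4, with squalene in Cy5, and 0.50 and 0.28 in pairs 2 and 3, with squalene in Cy3, a mean of 0.13 ± 0.31 (SD, n = 4). It was the 1 member of 10 with every Cy5 pair and every Cy3 pair on opposite sides of 0, against 27.8% of features. The difference between orientations was -0.52 (SE 0.13), and dye and the pools that share it cannot be told apart. The split remained with the scanner software's processed signals, at -0.17, 0.63, 0.38 and -0.26 in pairs 1 to 4. It also remained in the deposited table centred on probes above background, at -0.10, 0.31, 0.46 and -0.11. With median centring in place of loess the ratios were 0.45, -0.15, 0.08 and 0.21, with the Cy5 pairs above the Cy3 pairs. With median centring on probes above background, added after the data were seen, they were 0.14, 0.05, 0.17 and 0.14, with no split. Across all features 0 of 20658 passed for the orientation term (limma, Benjamini-Hochberg; smallest adjusted p 0.0901), with 3155 (15.3%) at an unadjusted p under 0.05. The Cy5 pairs and the Cy3 pairs did not overlap for 4 of the 10 genes, against 48.8% of features. Heavy chain genes are close relatives, and whether a probe reads more than 1 of them was not tested.

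B2m, the light chain of every class I molecule, had the smallest spread of the 10. Its ratios were 0.23, -0.029, -0.035 and -0.025 in pairs 1 to 4, a mean of 0.04 ± 0.13 (SD, n = 4). Pairs 2 to 4 lay within a narrow band, and pair 1 was apart from them, at 0.29 on slide 1 and 0.18 on slide 2. That band and the small spread depended on the normalisation. With the scanner software's processed signals the ratios were 0.11, 0.07, 0.05 and -0.16 in pairs 1 to 4. With median centring in place of loess they were 0.86, -0.80, -0.27 and 0.41. In the authors' deposited table, centred on all probes, pair 3 (0.47) was above pair 1 (0.23). Pool 5 had a log2 intensity of 16.11 and the other 7 pools lay between 15.86 and 15.96.

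The transporter genes showed the same pool more strongly. Tap1, which with Tap2 forms the pump that moves peptides into the endoplasmic reticulum, had ratios of 0.69, 0.13, -0.026 and -0.32, a mean of 0.12 ± 0.42 (SD, n = 4). In pair 1 it was 1.61-fold higher in the squalene pool. Squalene pools 5 to 8 had log2 intensities of 8.89, 8.29, 8.10 and 7.95, and Western pools 1 to 4 had 8.20, 8.15, 8.13 and 8.27. Pools 5 and 8 thus held the highest and the lowest of the 8 levels, and both were squalene pools labelled in Cy5. The spots kept of its 10 per array averaged 0.68 ± 0.09 (SD, 8 spots) and 0.70 ± 0.06 (SD, 9 spots) on the arrays of pair 1 and -0.32 ± 0.06 (SD, 10 spots) in pair 4. Tap2 gave 0.33, -0.13, -0.04 and -0.22, a mean of -0.02 ± 0.24 (SD, n = 4), and its repeat arrays of pair 1 differed more, at 0.45 and 0.21.

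**Figure D2:**
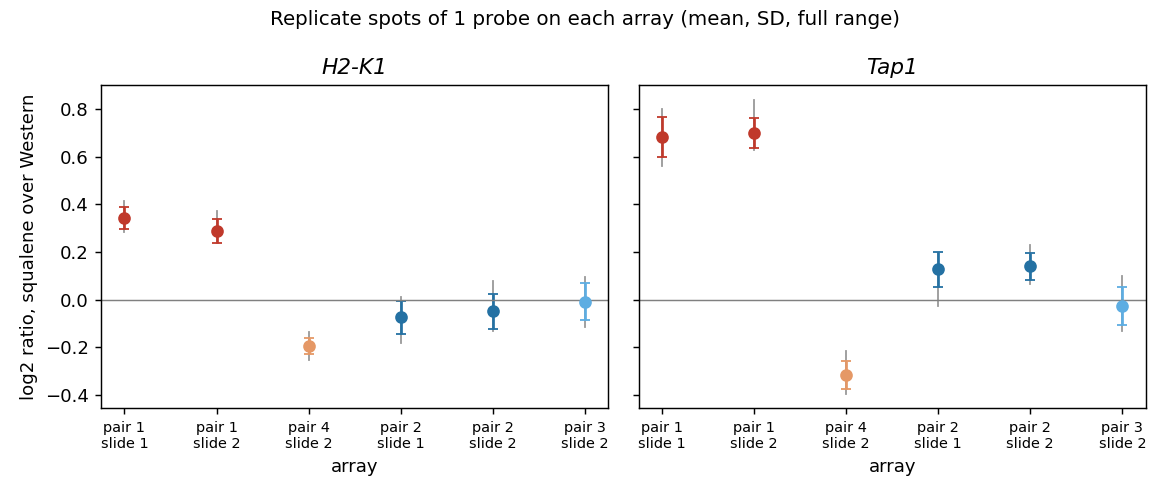
Log2 ratio of squalene over Western for replicate spots of the H2-K1 and Tap1 probes on each of the 6 arrays, as mean (point), SD (capped bar) and full range (thin line) over spots. The spots of both arrays of pair 1 lie above those of every other array, and those of pair 4 are the lowest array of each gene by its mean.

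The immunoproteasome genes spread most. Psmb8 had ratios of 0.75, -0.27, -0.17 and -0.15, a mean of 0.04 ± 0.48 (SD, n = 4). Its squalene pools 5 to 8 had log2 intensities of 12.29, 11.38, 11.42 and 11.40, and its Western pools 1 to 4 had 11.54, 11.65, 11.59 and 11.54. Pool 5 was above all Western pools and pools 6, 7 and 8 were below all of them. Psmb9, whose start faces that of Tap1 across the bases shown above, gave 0.96, -0.36, 0.09 and -0.28, a mean of 0.10 ± 0.61 (SD, n = 4). In pair 1 it was 1.95-fold higher with squalene, a ratio above that of 99.66% of features in that pair. Its repeat arrays of pair 1 gave 0.94 and 0.99. The SD of Psmb9 exceeded that of 97.46% of features, that of Psmb8 94.95% and that of Tap1 93.07%, while that of B2m exceeded 37.33%.

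Set against pools in the same dye, pool 5 was the high one. Among the 4 pools in Cy5, pool 5 had the highest level for 8 of 10 genes, against 26.1% of features. The 2 squalene pools in Cy5 differed most for Psmb9, by 1.06 in log2 level, then Tap1 (0.94), Psmb8 (0.89), Tap2 (0.56) and H2-D1 (0.45). These 5 differences lay within the squalene diet, and each was larger than the mean difference between diets of any of the 10 genes. They compare single pools on separate arrays, while the differences between diets are means over 4 pairs, so the 2 measures are unlike. Among the 4 pools in Cy3, Western pool 4 was highest for 7 of 10 genes, against 24.7% of features. The mean centred level of the 10 genes was 0.30 in pool 5, 0.11 in pool 4 and -0.17 in pool 8, with the other 5 pools between -0.09 and 0.0032. Pair 4 set the high Western pool against the low squalene pool and had 0 of 10 ratios above 0, against 10607 of 20658 features. That count depended on the normalisation. With median centring in place of loess, the pair 4 ratios ran from -0.56 (H2-Q1) to 0.41 (B2m), with a member median of 0.07. With median centring on probes above background they ran from -0.63 to 0.33, with a median of -0.01. The deposited table centred on probes above background had a member median of -0.25 in pair 4.

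**Figure D3:**
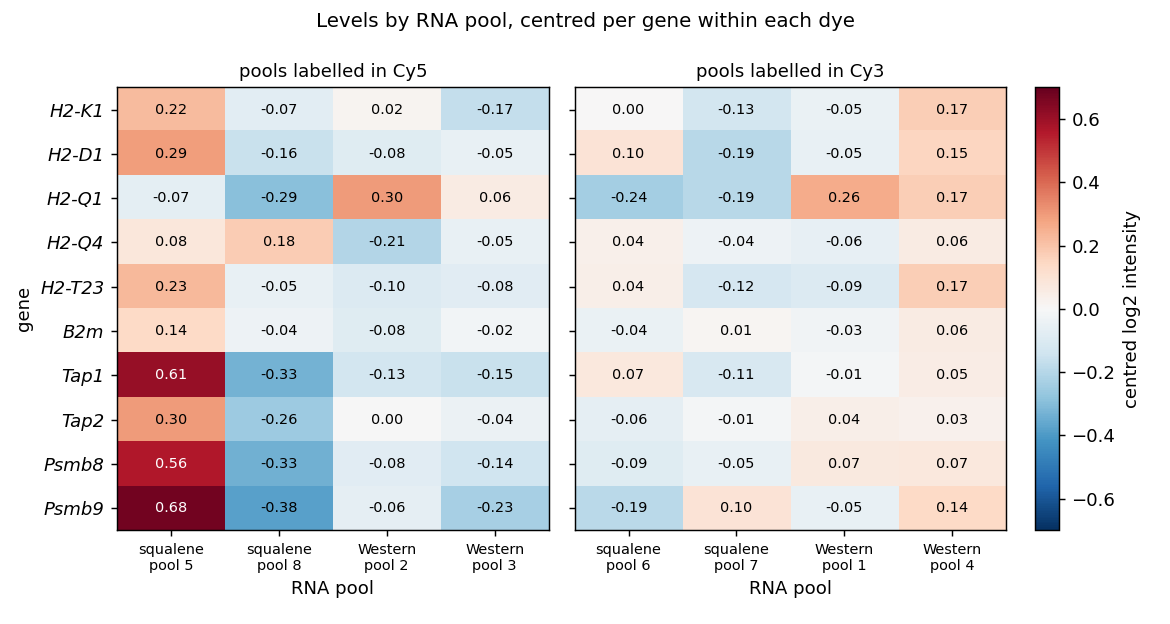
Log2 intensity of each gene in each RNA pool, centred per gene over the 4 pools of the same dye (red higher, blue lower, values printed), with pools in Cy5 on the left and in Cy3 on the right. Pool 5 is the highest Cy5 pool for all genes but H2-Q1 and H2-Q4, up to 0.68 for Psmb9, and both squalene columns in each dye are below both Western columns for H2-Q1.

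Over the 8 centred pool levels, 8 genes followed the mean of the other members at r = 0.84 to 0.93. H2-Q1 was at r = 0.02 and H2-Q4 at r = 0.12. These correlations are over 8 pools that share arrays in pairs. With pool 5 dropped after centring, the same 8 genes were at 0.55 to 0.76. The centring had included pool 5, whose high level lowers the other Cy5 pools in the centred values. These values therefore still carry pool 5 and do not show how the genes vary without it. Of 13301 other named features, those closest to the mean profile of the 10 genes included Tnip3 (r = 0.991), Commd8 (0.989), Rnase6 (0.983), Tnfsf10 (0.979), Cd274 (0.978), Tedc1 (0.977), Slc5a11 (0.971), Bcl11a (0.971) and Calhm6 (0.970). A share of 1.18% of these features had r over 0.9. Cd274, which encodes the checkpoint ligand PD-L1, had ratios of 1.06, 0.03, -0.26 and -0.59 in pairs 1 to 4. Tnfsf10, the death ligand TRAIL, had 0.61, -0.24, -0.12 and -0.26.

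Other genes of the route were read from fixed lists, in which limma called 0 genes higher and 0 lower at a Benjamini-Hochberg adjusted p under 0.05 over all features. Of 6 further immunoproteasome and activator genes, the list median was 0.05 over pairs and 0.42 in pair 1, where 5 of 6 were above 0. Psme1 and Psme2, the subunits of the PA28 activator ring, had 0.43 and 0.41 in pair 1 and stayed between -0.11 and 0.01 in the other pairs. Pomp, the proteasome assembly factor, had 0.25, -0.17, -0.09 and 0.20. Psme4, an activator of nuclear proteasomes, had -0.22, 0.40, -0.07 and 0.13. Psmb10, the remaining catalytic subunit of the immunoproteasome, named here after its values were seen, had 0.64, -0.13, -0.17 and -0.18. Of the 3 constitutive subunits that these replace, Psmb5 and Psmb6 had 0.25 each in pair 1 and Psmb7 had -0.10.

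The 13 peptide loading and trimming genes had a median of -0.02 in pair 1 and of 0.06 over pairs. Of their means 10 of 13 were above 0, against 10701 of 20658 features. Those with the smallest unadjusted p were Tpp2 at 0.09 ± 0.36 and Erap1 at 0.11 ± 0.21, which trim peptides, and Ganab at 0.07 ± 0.14 and Canx at 0.06 ± 0.12, which act on newly made glycoproteins (SD, n = 4). Within the list, by genes named after their values were seen, Tapbp and Tapbpl, editors dedicated to class I peptides, had 0.49 and 0.38 in pair 1. The general chaperones Calr and Pdia3 had -0.23 and -0.26 there, and Canx had 0.04.

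Of 26 other class I heavy chains and class I-like genes, 16 were measured, 2 were not above background and 8 had no named probe. Their median was -0.01 over pairs and 0.14 in pair 1, where 12 of 16 were above 0 and 10 of 16 had their highest ratio. H2-M3, which presents formylated peptides, had 0.47, -0.38, -0.71 and 0.14 in pairs 1 to 4. H2-Q8 had 0.34, -0.13, -0.29 and -0.34. Mr1, which presents vitamin metabolites, and Hfe, the iron regulator, were at -0.12 ± 0.12 and -0.06 ± 0.08 (SD, n = 4).

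The 22 measured regulators of class I genes had a median of 0.09 in pair 1 and of -0.0064 over pairs. Those with the smallest unadjusted p were Ifngr1, at -0.16 ± 0.29, Ifngr2, at -0.09 ± 0.16, and Ifnar1, at -0.13 ± 0.16, all chains of interferon receptors, and Creb1, at 0.08 ± 0.04 (SD, n = 4). Among those named after their values were seen, Irf1, the transcription factor that interferon gamma induces, had 1.39, 0.22, -0.61 and -0.52 in pairs 1 to 4. Nlrc5, the class I transactivator, had 0.34, 0.03, -0.27 and -0.12.

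The 13 measured GTPase and chemokine genes that interferon gamma induces had the highest median of the lists in pair 1, at 1.42, with 0.13, -0.27 and -0.34 in pairs 2 to 4. All 13 were highest in pair 1, against 22.6% of features. Over pairs the median was 0.24 with pair 1 and -0.21 without it. Tgtp1, Iigp1 and Irgm1, GTPases that act against pathogens inside cells, had 1.57, 0.87 and 0.91 in pair 1, and Gbp7 had 0.98. Type I interferon targets had a lower median in pair 1, at 0.26, with 8 of 11 highest there. Rsad2, an antiviral enzyme and the smallest unadjusted p of that list, had -0.0013, -0.23, -0.47 and -0.18. Ifit3, Oas1a and Ifit2 had 0.26, 0.52 and 0.19 in pair 1 and -0.44, -0.46 and -0.71 in pair 4.

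**Figure D4:**
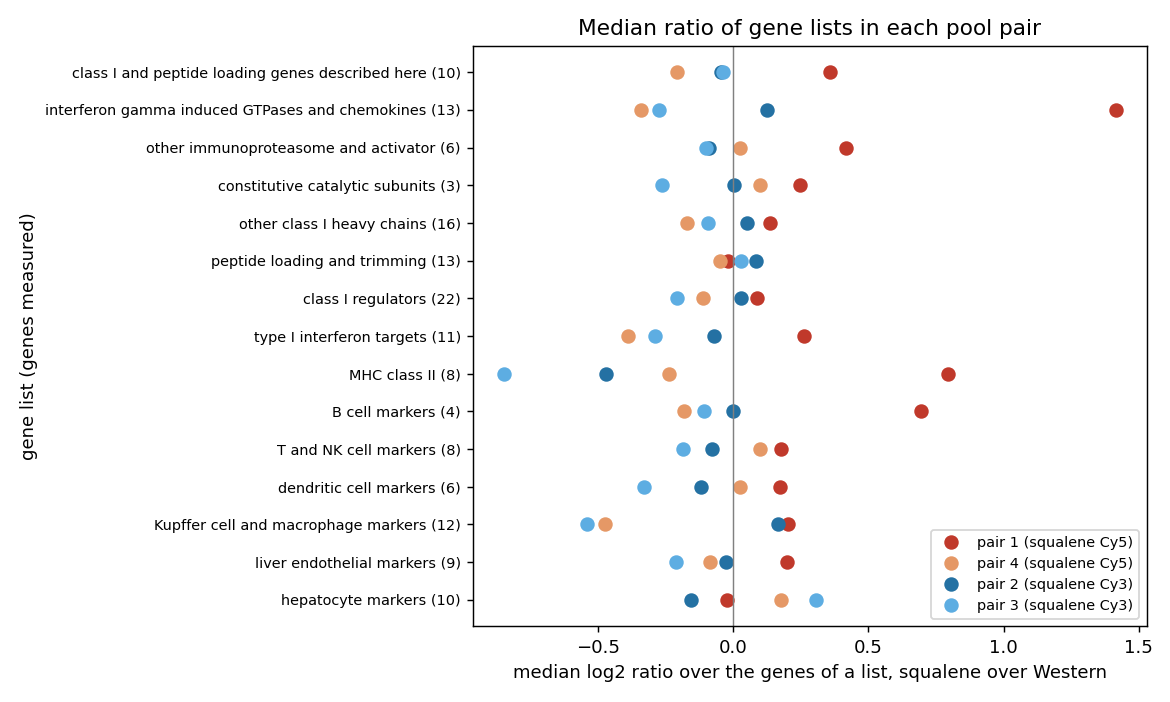
Median log2 ratio of squalene over Western over the measured genes of each list, 1 point per pool pair, with the number of genes in brackets. Pair 1 is far to the right for the interferon gamma induced genes (1.42), MHC class II (0.79), B cell markers (0.69) and the 10 genes described here (0.36), and near 0 for peptide loading and trimming and for hepatocyte markers (-0.02 each).

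MHC class II genes, B cell markers and Kupffer cell and macrophage markers were also high in pool 5 by mean level. Other immune marker lists were not all so. In whole liver, more cells of a type and more RNA per cell cannot be told apart. All 8 measured MHC class II genes, which antigen-presenting cells express, were highest in pair 1, with a median of 0.79 there and of -0.47, -0.85 and -0.24 in pairs 2 to 4. H2-Aa had 0.72, -0.56, -0.996 and -0.26, and H2-DMb1, a chain of the class II peptide editor, had 0.93, -0.64, -1.05 and -0.31. The mean centred level of the class II genes was 0.65 in pool 5, and ran from -0.49 to -0.07 in the other squalene pools and from -0.10 to 0.30 in the Western pools. Of the 6 B cell markers, Cd79a and Pax5 were not above background, and the 4 measured were all highest in pair 1, with Ms4a1 at 0.95 and Cd79b at 1.11. Their mean centred level was 0.55 in pool 5, -0.25 to -0.06 in the other squalene pools and -0.23 to 0.08 in the Western pools.

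Of 13 T and NK cell markers, Cd8a, Cd8b1, Klrb1c and Ncr1 were not above background, and the 8 measured had a median of 0.18 in pair 1. Gzma had 0.77, 0.0070, -0.16 and 0.57, and Gzmb had 0.14, 0.29, -0.21 and 0.34, so neither granzyme was high in pair 1 alone. The mean centred level of the 8 T and NK cell markers ran from -0.10 to 0.20 in squalene pools, with pool 5 the highest, and from -0.20 to 0.09 in Western pools. The medians of pair 1 were 0.20 for the 12 Kupffer cell and macrophage markers, 0.17 for the 6 dendritic cell markers, 0.20 for the 9 liver endothelial markers and -0.02 for the 10 hepatocyte markers. They were 0.17 for the 8 lipid-associated macrophage markers, 0.14 for the 8 stellate cell and fibroblast markers, 0.03 for the 5 neutrophil markers and 0.0082 for the 6 red cell transcripts. The mean centred level of the Kupffer cell and macrophage markers was 0.49 in pool 5, though not every gene of the list was above 0 there. By genes named after their values were seen, Marco, Adgre1 and Timd4 were at 1.96, 1.05 and 0.77 in pool 5. Clec4f and Vsig4 were at -0.14 and -0.06. In pair 1, 10 of the 12 ratios were above 0, and Clec4f and Vsig4 had -0.54 and -0.52. The list's mean centred level ran from -0.43 to -0.09 in the other squalene pools and from -0.37 to 0.27 in the Western pools. Western pool 1, the partner of pool 5 in pair 1, was at 0.25. The mean centred level in pool 5 was 0.13 for the neutrophil markers, below that of Western pools 1 and 4 (0.20 and 0.30). For the lipid-associated macrophage markers it was -0.04, below every Western pool (0.05 to 0.27). The part of cell makeup in the pair 1 values of the 10 genes was not tested.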

How the data were processed

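Hepatic RNA pools were compared on 6 two-colour arrays, as 4 pool pairs in 1 ratio of squalene over Western; repeat arrays of pairs 1 and 2 counted once. The deposited scanner output gave each spot's intensity and its local background per channel, read out with Agilent Feature Extraction 10.7 per the submitters' processing notes (10.7.3.1 per the file headers), and the software's marks for controls, outliers and signal above background. Other deposited columns held processed intensity values, background-subtracted and dye-normalised by the scanner software per the file headers, used as an alternative. The value table that the authors deposited had log10 ratios, equal within 0.001 to log10 squalene over Western of the unnormalised median signals for 99.93% to 99.94% of spots; 2 cells in each column of pair 1 were too large and left out. Its column medians were 0.254 and 0.27 in pair 1, -0.217 and -0.257 in pair 2, -0.27 in pair 3 and 0.259 in pair 4.

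In R 4.3.3 with limma 3.58.1 and its data.table package (version 1.17.8), deposited median intensity values were corrected with normexp (offset 50) and normalised by loess, with controls at weight 0 and outlier spots left out, and turned to log2 ratios. Spots of a probe and repeat arrays were averaged. A probe was kept where more than 50% of its spots were well above background in at least 3 of 4 pairs in the channel of 1 diet or more (26854 probes); the brightest probe stood for a gene. The limma fit (lmFit, eBayes) held the squalene effect and the dye orientation, with Benjamini-Hochberg adjustment over 20658 features, 2 residual and 3.039 prior degrees of freedom. The median SE was 0.0654, the median SD between pairs 0.162. Pool levels were log2 channel intensities after loess and Aquantile; centred levels were set against the 4 pools of one dye. The number of pool pairs limits the precision. A p-value sets a difference against the spread of the pair ratios within a dye orientation, moderated over all features.

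The members and gene lists were chosen with earlier results of these data known. Named were all members, up to 4 genes of each pathway list and up to 2 of each marker list by smallest unadjusted p, and the 10 features closest to the members' mean profile, of which 1 is not reported here; of the marker lists with no value above, only medians are given. Exceptions are marked. Alternatives changed the background correction, the normalisation, the variance model, the dye term, the filter, the rule for several probes of a gene and the slides used, or left out each pair. Probe symbols came from RefSeq (GRCm38.p6); 28919 of 55681 probes had none.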

Additional observations from a re-analysis of the deposited data

Results flagged for a closer look

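Of 88 series of 4 pair values that were checked (69 genes and 19 list medians), 9 had 1 pair apart from the other 3 by more than Dixon's 95% value for 4 points, and in all 9 it was pair 1. Chance flags about 1 in 20 independent groups, but these series share the same pools and many were picked with their values in view, so that rate is no reference for them. Among the 10 class I and loading genes these were B2m, at 0.234 in pair 1 against values from -0.035 to -0.025 in the others, and Psmb8, at 0.752 against -0.27 to -0.15. The narrow band of B2m depended on the normalisation, as given above. The PA28 subunit gene Psme1 was at 0.432 in pair 1, the GTPase gene Tgtp1 at 1.57 and the B cell marker Ms4a1 at 0.948. Of the genes chosen for their likeness over pools, Tnip3 was at 0.431, Tnfsf10 at 0.613, Tedc1 at 0.406 and Calhm6 at 0.935 in pair 1; their choice favoured genes high in pool 5. A cause was not tested.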

How the results depend on the processing

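The median of the 10 genes' ratios (fitted values) was above 0 in all 13 settings other than those that left out a pair, at 0.02 to 0.17, and spanned -0.14 to 0.16 over the fits that left out 1 pair, at -0.14 without pair 1 (the plain mean of the other pairs gives -0.10). With slide 1 alone, a value with no test, it was 0.17. No gene of the 7 pathway lists passed in any of 16 settings (0 to 0 leaving out a pair). Between diets 0 features passed in every fit that left out a pair, while there were 2 with median centring and 8 with the deposited table. In centrings added after the data were seen, on probes above background, there were 2 with median centring and 5 with the deposited table, and no member was among any of these. For orientation the counts in those 4 settings were 2230, 2468, 496 and 17, with 2 members among the 2230 and 1 among the 2468, against 0 leaving out a pair. The cause was not tested. The count of members highest in pair 1 cannot fall below 8 when pair 2, 3 or 4 is left out, and it was 8 each time. It was 9 with median centring and 4 with the deposited table. Median centring moved the median of all features to 0.32 in pair 1, and the deposited table to 0.38 in pair 3. H2-Q1 was below 0 and H2-Q4 above 0 in all 17 settings each, H2-Q1 at -0.63 with processed signals. Each ratio already compares a pool with its partner on the same array, so no further replicate block was fitted. With 4 pools per diet of 2 or 3 animals, no single animal can be read, and the dim signal of H2-Q1 and Tap1 limits how well their ratios are known.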
